A study of Homo sapiens with 4 samples.

Results

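The nuclear transport receptors described here are the alpha importins KPNA1, KPNA2, KPNA3, KPNA4, KPNA5 and KPNA6, the beta family import receptors KPNB1, TNPO1 and IPO7, and the exportin XPO1. They are 10 of 57832 genes with annotated transcripts in the count data, and all 10 had counts in every library. They were chosen by name with the counts of these same libraries already known, and selected on their summed annotated transcripts at the 4 times, that of KPNA6 above all. Their levels and ratios are therefore a description and support nothing by themselves. RNA came from AC16, an established human cell line derived by fusion of ventricular tissue of the adult heart with fibroblasts, and labelled as cardiomyocytes. The groups were untreated AC16 cells (0 min) and AC16 cells kept for 10, 30 or 360 min in 10 nM doxorubicin, a DNA-intercalating anthracycline that traps topoisomerase II. The drug was given in fresh serum-free medium after removal of serum-containing medium and a rinse, and whether untreated cells were rinsed or changed too is not recorded. Drug, rinse and loss of serum therefore cannot be told apart. Each time has 1 library, which leaves every difference without a replicate check. Every range given is a 95% interval that covers counting error only.

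The libraries held 55156612 to 56875881 deposited counts, or 13789153 to 14218970 read pairs if a pair is taken as 4 counts. The 10 min library had counts for 26382 genes and the other libraries for 25007 to 25081. Transcript models that the authors' assembly added to the annotation held 10.7% to 11.7% of counts. Of 15 cardiomyocyte markers, 7 reached 1 CPM (a count with its library scaled to 1000000) in 1 or more libraries, their summed level was 82.2 CPM at 0 min and 87.5 CPM at 10 min, and ACTC1 and PLN were at 0 throughout. Of 10 fibroblast markers, 5 reached 1 CPM, with LUM and DCN at 0. Their summed level was 10522, 13776, 8981 and 8897 CPM at 0, 10, 30 and 360 min, highest in the library where most of the transport receptors were lowest, and its part in the results was not tested. Of 5 endothelial markers 1 reached 1 CPM (summed level 4.54 to 11.4 CPM, KDR at 0), of 6 immune markers 2 did (29.8 to 57.6 CPM, CD14 at 0), and both sums were also highest at 10 min. Of 5 epithelial markers, KRT8 and KRT18 reached 1 CPM, and the summed level was 465 to 517 CPM.

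Proteins too large to diffuse through the nuclear pore are carried by receptors. An alpha importin binds the basic localization signal of a cargo and is itself carried in by KPNB1, importin beta. TNPO1 and IPO7 bind cargo directly. RAN bound to GTP, made in the nucleus, releases imported cargo, and the same form of RAN lets XPO1 bind the leucine-rich signals of proteins that leave. In heart muscle cells this traffic sets whether signal-dependent transcription factors reach the DNA. Each gene was measured in 2 ways: as the sum of its annotated transcripts, and as its whole locus, with the assembled models added. The 2 sums are equal for KPNA1, KPNA2, KPNA3, KPNA4, KPNA5 and IPO7, whose loci hold no assembled model.

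The results turn on which transcripts carry the counts, so some splice junctions that differ among the KPNA6 transcripts are shown first. KPNA6 (ENSG00000025800) lies on the plus strand at chr1:32108038-32176568 of GRCh38 and has 4 annotated transcripts. KPNA6-201 is protein-coding and has 14 exons. KPNA6-204, annotated as a target of nonsense-mediated decay, starts exon 7 at 4 bases further in and ends exon 3 at 18 bases earlier. KPNA6-202, annotated as protein-coding, lacks exon 6, which has 132 bases (chr1:32159400-32159531). KPNA6-201 has 7378 bases, KPNA6-204 3941 and KPNA6-202 965, so the transcripts also differ outside these junctions. KPNA6-203 is annotated as a processed transcript. The junctions below are read 5′ to 3′ from the GENCODE 29 transcripts, with 16 bases on each side, and the capitals mark bases of KPNA6-201 that KPNA6-204 leaves out.
KPNA6-201, exon 6 to 7: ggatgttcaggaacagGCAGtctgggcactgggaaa
KPNA6-204, exon 6 to 7: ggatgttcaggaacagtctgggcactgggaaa
KPNA6-201, exon 3 to 4: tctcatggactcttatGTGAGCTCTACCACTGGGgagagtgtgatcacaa
KPNA6-204, exon 3 to 4: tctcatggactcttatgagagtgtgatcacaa
KPNA6-202, exon 5 to 7: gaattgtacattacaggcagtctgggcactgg
The first pair differ by 4 bases, so in that stretch only reads that cross the junction separate the transcripts.

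XPO1 (ENSG00000082898) lies on the minus strand at chr2:61477849-61538626 of GRCh38, and RefSeq gives it 2 start sites 1269 bases apart, at 61538356 and 61537087. The stretches before both starts are shown because XPO1 transcripts from these starts carried different shares of its counts at different times. They come from RefSeq (GRCh38.p14), trimmed to bases outside every exon of GENCODE 29, and the capitals mark CCAAT or CACGTG on either strand (CCAAT reads ATTGG on the other strand, and CACGTG reads the same on both).
XPO1, before the upstream start, chr2:61538357-61538491, minus strand: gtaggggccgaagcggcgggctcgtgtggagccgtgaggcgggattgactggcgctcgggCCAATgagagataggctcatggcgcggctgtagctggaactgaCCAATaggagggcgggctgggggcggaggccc
XPO1, before the downstream start, chr2:61537118-61537337, minus strand: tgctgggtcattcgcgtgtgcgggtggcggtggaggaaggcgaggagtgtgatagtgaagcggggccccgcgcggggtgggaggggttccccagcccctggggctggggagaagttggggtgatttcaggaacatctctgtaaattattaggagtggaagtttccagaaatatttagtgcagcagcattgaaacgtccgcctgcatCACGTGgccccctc
The upstream stretch holds CCAAT at 2 places and no CACGTG, and the downstream stretch holds CACGTG at 1 place and no CCAAT. Among the 250-base windows before all 35116 RefSeq starts in the table, 32.0% hold CCAAT and 6.34% hold CACGTG. Of the 10 genes, 7 matched the table by symbol, with 9 starts. CCAAT is in the windows of 4 of these (KPNA6, the upstream XPO1 start, KPNA2 and 1 of the TNPO1 starts), and CACGTG in those of 3 (the downstream XPO1 start, IPO7 and KPNA3). A match describes the letters only.

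At 10 min all 10 genes had a lower CPM than at 0 min on both sums. In RNA from whole cultures, fewer cells of a kind and less RNA per cell cannot be told apart. KPNA6, KPNB1 and KPNA2 passed the size rule, which asks for a 2-fold ratio or more, a level of at least 5 CPM in either library of the pair, and 1 outside the counting interval. That was 3 of 10 lower and 0 higher. Over the 11889 genes tested the rule called 6.85% lower and 7.70% higher, 14.5% in all. On whole loci 2 of 10, KPNA6 and KPNA2, were lower, with 4.61% of 10709 genes called lower and 5.93% higher, 10.5% in all. The median log2 ratio of the 10 was −0.39 on annotated transcripts and −0.42 on whole loci, and over all genes tested it was −0.04 and −0.02.

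At 30 min only KPNA6 of the 10 passed the size rule, lower on both sums. On annotated transcripts the rule called 3.24% of 11530 genes lower and 3.55% higher, 6.79% in all. On whole loci it called 1.35% of 10411 genes lower and 1.60% higher, 2.96% in all. At 360 min KPNA6 alone passed, lower, on annotated transcripts, where 3.34% of 11507 genes were called lower and 3.26% higher, 6.60% in all. On whole loci 0 of 10 passed, with 0.994% of 10366 genes called lower and 0.955% higher, 1.95% in all. The median log2 ratio of the 10 was −0.07 at 30 min and 0.09 at 360 min on annotated transcripts, and over all genes −0.01 and 0.01. Since each ratio is taken against the same 0 min library, the 3 times are not independent of each other.

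**Figure D1:**
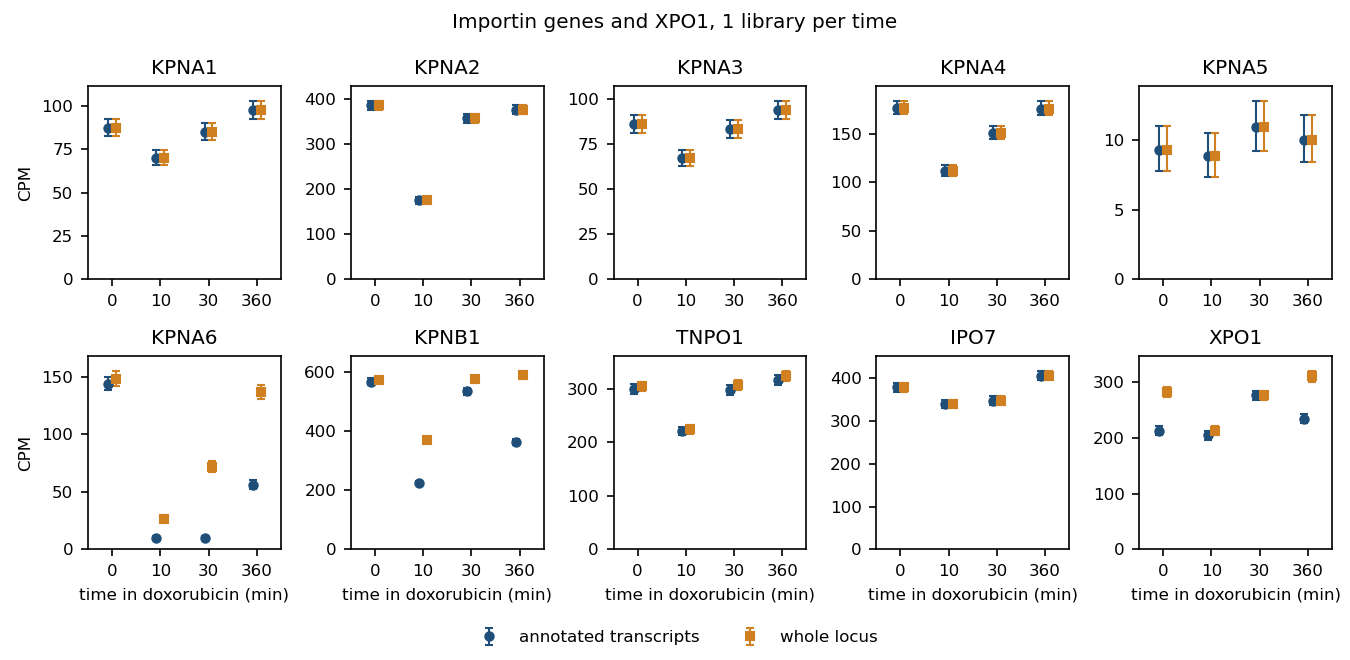
Levels (CPM, linear axis from 0) of each of the 10 genes at 0, 10, 30 and 360 min, as the sum of annotated transcripts (circles) and as the whole locus (squares), with 95% counting intervals and 1 library per time. The 10 min point lies lowest or level with the lowest for most genes, and the sums part company for KPNA6, KPNB1 and XPO1.

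KPNA6 is an adaptor of the same subfamily as KPNA1 and KPNA5. Its annotated transcripts summed to 144, 9.87, 9.66 and 56.2 CPM at 0, 10, 30 and 360 min. The 10 and 30 min libraries were low and alike, and the 360 min library lay between them and 0 min. Against 0 min the sum was 14.6-fold lower at 10 min (12.2 to 17.4), 14.9-fold lower at 30 min (12.5 to 17.9) and 2.56-fold lower at 360 min (2.35 to 2.78). The whole KPNA6 locus, with its 2 assembled models, gave 148, 26.8, 72.0 and 137 CPM. On this sum the level was low at 10 min, intermediate at 30 min and close to the start at 360 min. The whole locus was 5.54-fold lower at 10 min (4.96 to 6.21), 2.06-fold lower at 30 min (1.91 to 2.22) and 1.08-fold lower at 360 min (1.02 to 1.15). At 10 min both sums thus put KPNA6 far below its start, while at 30 and 360 min the size of the difference depends on the assembled models. With protein-coding transcripts only, the ratio of KPNA6 was 0.0554 at 10 min and 0.0452 at 30 min, and with counts divided by length it was 0.120 at both times. Of the exon bases of KPNA6, 8.92% are shared with AL049795.2 on the same strand, and reads there could be given to either gene. The whole locus of KPNA6 also takes in the few counts of AL049795.2 itself, which the plot by transcript leaves out.

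Among its transcripts, KPNA6-201 held 8149, 400, 314 and 3090 deposited counts at 0, 10, 30 and 360 min. It carried nearly all annotated counts of the gene at the first and last times and less in between. Its share was 99.7% at 0 min (99.4 to 99.9), 72.9% at 10 min (64.6 to 80.1), 58.8% at 30 min (50.0 to 67.2) and again 99.7% at 360 min. KPNA6-201 was 19.9-fold lower at 10 min (16.3 to 24.6), 25.2-fold lower at 30 min (20.1 to 32.0) and 2.56-fold lower at 360 min. The estimated counts of KPNA6-204 and KPNA6-202 were almost confined to the 10 and 30 min libraries. They are estimates per transcript, and reads at the junctions above were not counted. How reads were shared among overlapping transcripts was the authors' step, and its part was not tested. KPNA6-204 held 4, 102, 176 and 0 counts, and its share was 0.0489% at 0 min (0.00124 to 0.272), 18.6% at 10 min (12.5 to 26.1) and 33.0% at 30 min (25.1 to 41.6). KPNA6-202 held 0, 41, 44 and 0 counts, a share of 7.47% at 10 min (3.68 to 13.2) and 8.24% at 30 min (4.19 to 14.3). KPNA6-203 stayed at or under 19 counts in every library. A count of 0 allows up to 12 deposited counts, or 0.211 CPM at 0 min and 0.218 CPM at 360 min.

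The assembled models at KPNA6 held more counts after 0 min than at it, apart from the first of them at 10 min. The first held 267, 0, 446 and 1523 counts, and the second 0, 917, 3001 and 2938 counts, at 0, 10, 30 and 360 min. Together they carried 3.16% of the locus at 0 min, 61.6% at 10 min, 86.6% at 30 min and 59.0% at 360 min. What their exons are is not given in the sources used here, so whether they encode the same protein as KPNA6-201 was not tested.

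**Figure D2:**
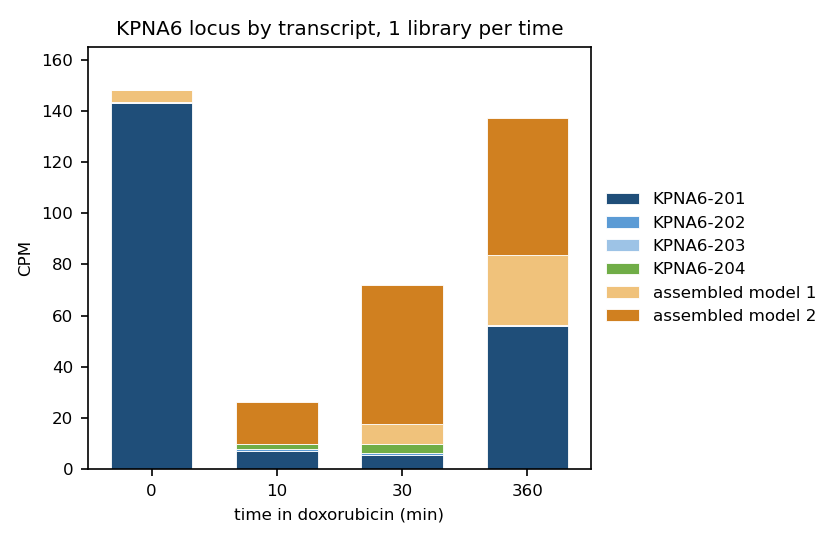
CPM of the KPNA6 locus at 0, 10, 30 and 360 min, stacked by annotated transcript and by assembled model, 1 library per time, linear axis from 0. KPNA6-201 fills nearly the whole bar at 0 min, the bar is shortest at 10 min, and the assembled models make up most of it at 10, 30 and 360 min.

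KPNA2 (chr17:68035519-68046842) is the adaptor most abundant in dividing cells. Its level was 385, 175, 357 and 375 CPM at 0, 10, 30 and 360 min. The 10 min library stood apart and the others were close to each other. KPNA2 was 2.20-fold lower at 10 min (2.10 to 2.31), and its ratio against 0 min was 0.928 at 30 min (0.892 to 0.964) and 0.975 at 360 min (0.938 to 1.01). From 10 to 30 min the ratio was 2.04 (1.94 to 2.14). Its protein-coding transcripts KPNA2-201 and KPNA2-202 have separate first exons, at chr17:68035519-68035840 and chr17:68035960-68036556. KPNA2-201 held 12317, 2980, 12379 and 16464 counts, 4.04-fold lower at 10 min (3.73 to 4.38). KPNA2-202 held 8255, 6690, 6740 and 2740 counts, 1.21-fold lower at 10 min (1.13 to 1.29) and 2.92-fold lower at 360 min (2.68 to 3.19). By these estimates the low level at 10 min lay mostly in KPNA2-201. Its share of the gene was 56.3%, 30.7%, 62.8% and 79.6% at the 4 times. The authors' sharing of reads between these overlapping transcripts was not tested. KPNA2-205, annotated for nonsense-mediated decay, held 1276, 30, 565 and 1441 counts, also lowest at 10 min.

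KPNA3 and KPNA4 form a subfamily of adaptors known for carrying NF-kappaB subunits. KPNA4 (chr3:160494995-160565588) was measured at 177, 112, 151 and 176 CPM. It was lowest at 10 min and at 360 min stood where it began. Its ratio was 0.634 at 10 min (0.595 to 0.675), 0.855 at 30 min (0.807 to 0.907) and 0.997 at 360 min (0.942 to 1.05). KPNA3 (chr13:49699307-49792921) gave 86.1, 67.4, 83.4 and 93.8 CPM, a ratio of 0.783 at 10 min (0.718 to 0.853). Neither passed the size rule at any time. A single transcript carried each gene: KPNA4-201 held 10028, 6219, 8351 and 9710 counts and KPNA3-201 4897, 3747, 4600 and 5158.

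KPNA1 (chr3:122421949-122514945), an adaptor known for carrying STAT proteins, gave 87.4, 70.2, 85.2 and 97.6 CPM. Its ratio was 0.803 at 10 min (0.738 to 0.874), 0.974 at 30 min and 1.12 at 360 min (1.03 to 1.21), none past the size rule. With protein-coding transcripts only the ratios were 0.680, 0.714 and 1.12, and with counts divided by length 1.04, 1.27 and 1.31. The leading transcript of KPNA1 was the protein-coding KPNA1-201 at 0, 10 and 360 min and KPNA1-205, a processed transcript, at 30 min. KPNA1-205 held 54, 50, 1916 and 43 counts, while KPNA1-204, another processed transcript, held 2289, 1211, 52 and 1663. The estimates of KPNA1-204 and KPNA1-205 changed places in the 30 min library alone. How reads were shared between them was the authors' step, and its part was not tested. KPNA1-210, annotated for nonsense-mediated decay, held 16, 899, 919 and 828 counts, and was thus near 0 in the 0 min library alone. Of the exon bases of the whole KPNA1 gene, 16.3% overlap AC083798.2 on the opposite strand. Since strand use is not stated, the values of KPNA1 are uncertain.

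KPNA5 (chr6:116681187-116741866) was scarce in every library, at 9.28, 8.83, 10.9 and 10.0 CPM. Its ratios of 0.951 (0.738 to 1.23), 1.17 (0.922 to 1.49) and 1.08 (0.845 to 1.38) all had intervals that include 1. Its transcripts were less even: KPNA5-201 held 125, 0, 231 and 135 counts and KPNA5-202 403, 483, 371 and 410. The share of KPNA5-201 was 23.7% at 0 min (16.7 to 31.9), 0% at 10 min (up to 2.96) and 38.4% at 30 min (30.6 to 46.6). The level of KPNA5 with counts divided by transcript length was 3.78 TPM (3.16 to 4.48) at 0 min and 2.29 (1.90 to 2.73) at 10 min, a ratio of 0.605. KPNA7, the remaining alpha importin, gave 1.18, 2.43, 1.79 and 1.09 CPM and, under 5 CPM throughout, entered no comparison.

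**Figure D3:**
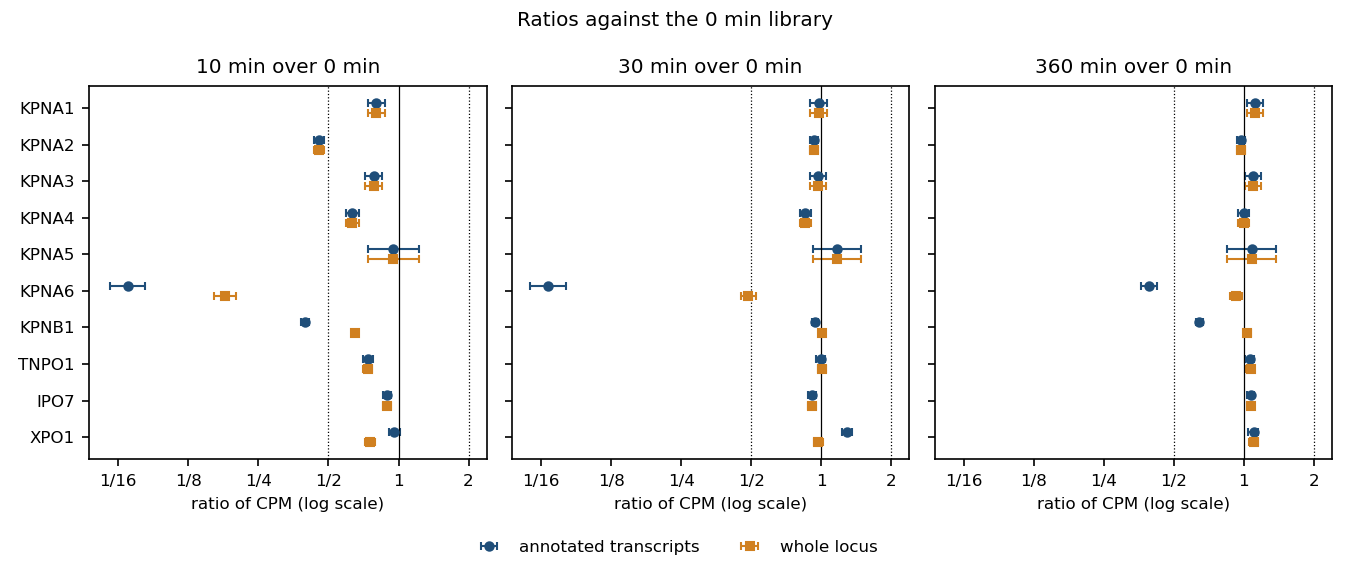
Ratio of CPM of each of the 10 genes at 10, 30 and 360 min over 0 min (log scale), for annotated transcripts (circles) and whole loci (squares), with 95% counting intervals. The solid line marks a ratio of 1 and the dotted lines 2-fold. KPNA6 lies furthest to the left at 10 and 30 min, and at 360 min only its annotated sum is beyond the dotted line.

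KPNB1 (chr17:47649476-47685505), importin beta, is the partner of every adaptor above. Its annotated transcripts summed to 568, 225, 535 and 365 CPM. On this sum the 10 min library was lowest and the 360 min library also lay below 0 min. The sum was 2.52-fold lower at 10 min (2.42 to 2.63), 1.06-fold lower at 30 min and had a ratio of 0.642 at 360 min (0.620 to 0.665). The whole KPNB1 locus gave 572, 372, 575 and 591 CPM. On it only 10 min was low, 1.54-fold (1.49 to 1.59), short of the size rule, and the ratio was 1.01 at 30 min (0.975 to 1.04) and 1.03 at 360 min. The gap comes from 1 assembled model with 185, 8122, 2200 and 12472 counts. KPNB1-201, the main protein-coding transcript, held 30882, 10287, 15836 and 17115 counts, a share of annotated counts of 95.5%, 82.1%, 53.6% and 85.0%. At 30 min the other large part was KPNB1-202, protein-coding and with 21 exons against 22, which held 330, 871, 12074 and 1759 counts. KPNB1-201 was the largest part of the locus in every library. Its share of the locus was 49.8% at 10 min and 52.5% at 360 min, and that of the assembled model 39.3% and 38.3%. By these estimates the 10 and 360 min libraries divided KPNB1 nearly alike, and 30 min stood apart. Read sharing among the KPNB1 transcripts was the authors' step too, and its part was not tested.

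TNPO1 (chr5:72816312-72916733), transportin, imports RNA-binding proteins with a proline-tyrosine signal. It gave 299, 221, 298 and 316 CPM, and 304, 224, 306 and 323 CPM for the whole locus. On both sums only the 10 min library was low. The ratio at 10 min was 0.741 (0.707 to 0.776), at 30 min 0.996 (0.954 to 1.04) and at 360 min 1.06 (1.01 to 1.10), and none passed the size rule. TNPO1-201 led in every library with 12677, 9259, 15760 and 13664 counts. TNPO1-213, a shorter protein-coding transcript, held 3637, 2523, 0 and 3018 counts. Its estimate was thus 0 in the 30 min library, where that of TNPO1-201 was highest. How reads were shared between these transcripts was the authors' step, and its part was not tested. With counts divided by length, the level of TNPO1 was 127, 99.3, 76.2 and 126 TPM, lowest at 30 min, and the ratio there was 0.601.

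IPO7 (chr11:9384622-9448126) imports ribosomal proteins and, with KPNB1, linker histone. It gave 378, 338, 347 and 405 CPM. These were the most even levels of KPNB1, TNPO1 and IPO7: its ratios were 0.894 at 10 min (0.860 to 0.930), 0.916 at 30 min (0.881 to 0.953) and 1.07 at 360 min (1.03 to 1.11). IPO7-201 held 21350, 18679, 19008 and 22196 counts, nearly all of the gene.

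XPO1, the receptor blocked by leptomycin B, summed to 213, 205, 276 and 234 CPM over its annotated transcripts. On this sum 30 min was highest, with a ratio of 1.29 (1.23 to 1.36), and 10 min stood near 0 min, with a ratio of 0.959 (0.911 to 1.01). The whole XPO1 locus gave 283, 213, 276 and 310 CPM. There 10 min was lowest, with a ratio of 0.754 (0.719 to 0.791), and 30 min stood near 0 min, with a ratio of 0.973 (0.931 to 1.02). At 360 min the ratio was 1.10 on both. With protein-coding transcripts only, the ratio was 1.26 at 10 min and 1.78 at 30 min, so the direction for XPO1 at 10 min depended on the transcripts summed. None of these passed the size rule.

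The estimated counts of XPO1 transcripts, grouped by the start site nearest their annotated 5′ end, differed between libraries. Reads at the start sites were not counted. Transcripts whose annotated 5′ end lies within 300 bases of the upstream start (XPO1-201, XPO1-203, XPO1-206, XPO1-207 and XPO1-209) held 1078, 6703, 9780 and 1059 counts. They carried 8.89% of annotated counts at 0 min (7.90 to 9.96), 59.0% at 10 min (57.1 to 60.8), 64.2% at 30 min (62.7 to 65.7) and 8.21% at 360 min (7.28 to 9.21). Those at the downstream start (XPO1-202 and XPO1-211) held 5418, 1557, 2197 and 5744 counts, or 44.7%, 13.7%, 14.4% and 44.5%. The 0 and 360 min libraries were alike, and so were the 10 and 30 min libraries. Within the upstream set the protein-coding XPO1-203 held 0, 4683, 6379 and 0 counts, and XPO1-201 held 880, 1474, 2540 and 647. XPO1-202 was 3.40-fold lower at 10 min (3.04 to 3.82), 2.40-fold lower at 30 min (2.17 to 2.65) and had a ratio of 1.09 at 360 min (1.01 to 1.18).

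The other 17 annotated XPO1 transcripts, which begin elsewhere, held 5635, 3110, 3255 and 6102 counts. Most of these were XPO1-219, annotated as a retained intron, with 5298, 2616, 2823 and 5660 counts. The assembled model at XPO1 held 3971, 495, 0 and 4220 counts and followed the same order, high at 0 and 360 min. Its start site is not given in the sources used here. How reads were shared among overlapping transcripts was the authors' step, and its part in the start site shares was not tested.

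**Figure D4:**
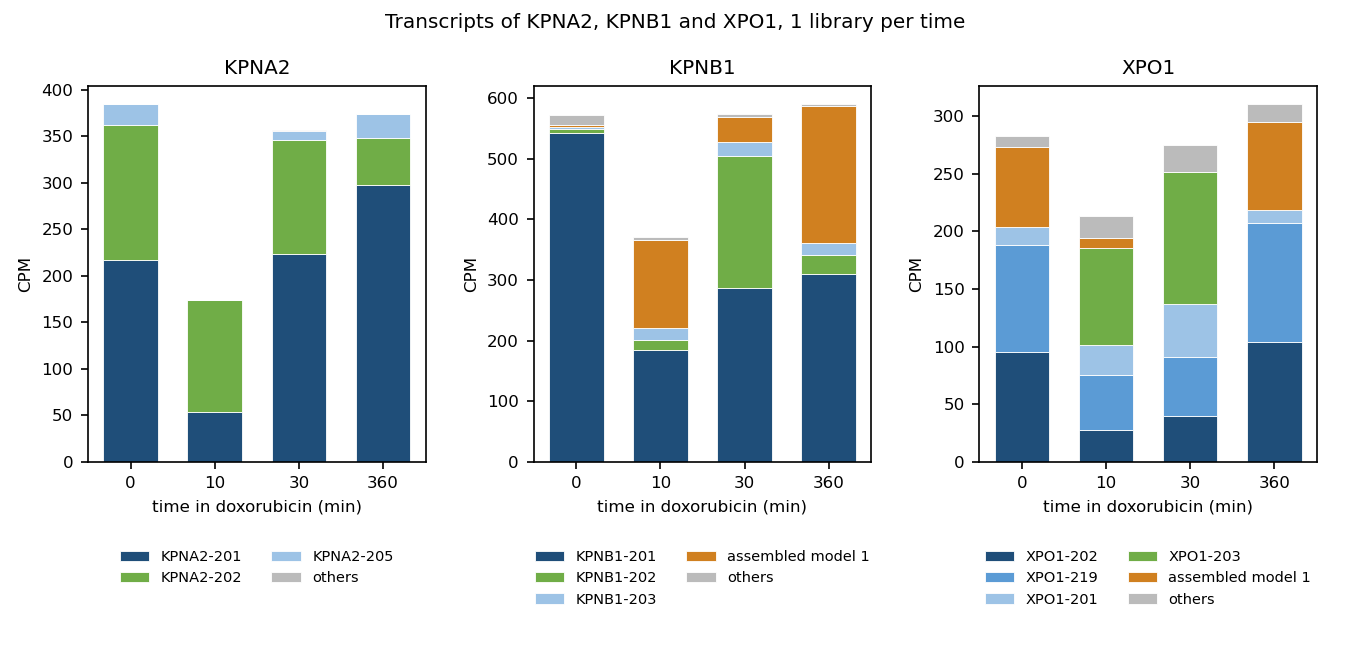
CPM of KPNA2, KPNB1 and XPO1 at 0, 10, 30 and 360 min, stacked by transcript and assembled model, 1 library per time, linear axes from 0. KPNA2-201 shrinks at 10 min, KPNB1-202 is large at 30 min only, and XPO1-203 appears at 10 and 30 min only.

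The leading transcript differed in many genes. KPNA2 and XPO1 had another leading transcript at 10 min than at 0 min, KPNA1 and XPO1 at 30 min, and 0 of 10 at 360 min. Among all genes with at least 5 CPM in both libraries the share was 19.5% at 10 min, 18.3% at 30 min and 18.8% at 360 min. The ratios on the 2 sums lay over 1.5-fold apart for KPNA6 and KPNB1 at 10 and 360 min and for KPNA6 at 30 min. Over all genes this was so for 7.28%, 6.78% and 6.76%.

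Levels can be compared between genes only per length. At 0 min the per-length level, in TPM (counts divided by transcript length, scaled over annotated transcripts), was 450 for KPNA2 (438 to 462), 263 for KPNB1 (257 to 268), 153 for IPO7 (149 to 157), 146 for XPO1 (140 to 151) and 127 for TNPO1 (123 to 131). The intervals of IPO7 and XPO1 overlap, and the other neighbours in this part of the order do not. Next came KPNA1 at 48.0 (45.3 to 50.7), KPNA4 at 47.3 (45.4 to 49.1), KPNA6 at 45.4 (43.5 to 47.5) and KPNA3 at 44.1 (41.7 to 46.7), whose neighbours all overlap. KPNA5 was lowest at 3.78 (3.16 to 4.48). Over annotated transcripts of every type, KPNA6 thus began at the level of KPNA1, KPNA3 and KPNA4. At 10 min its per-length level was 5.45 (4.58 to 6.44), against 49.9 for KPNA1, 35.3 for KPNA3 and 30.1 for KPNA4. At 10 min KPNA2 was still first, at 176 (169 to 183), but XPO1 at 154 and IPO7 at 139 stood above KPNB1 at 116. These levels leave out the assembled models, which held 39.3% of the KPNB1 locus and 61.6% of the KPNA6 locus at 10 min. At 0 min the XPO1 locus was at 283 CPM with its model and 213 CPM without it. The order given here therefore holds for annotated transcripts only. It also takes in transcripts not annotated as protein-coding. Per length, KPNA1 was led by KPNA1-204 at 0 min and by KPNA1-210 at 10 min, and XPO1 by XPO1-219 at 0 min. None of these is annotated as protein-coding, so the order is not one of coding transcripts.

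Other genes of the pathway were taken from lists of nuclear transport genes, and those named were past the size rule or led their list at 10 min. Over all 11889 genes tested at 10 min on annotated transcripts, 6.85% were called lower and 7.70% higher. On whole loci 4.61% of 10709 genes were called lower and 5.93% higher. Of the 8 other beta family import receptors, 0 were higher and 1 lower at 10 min on annotated transcripts. That was IPO4, an importer of histones and ribosomal proteins, at 54.0, 16.1, 18.1 and 35.0 CPM, which was low at 10 and 30 min. The loci of IPO4 and IPO11 could not be tied to them alone, so neither has a whole-locus value. IPO11 at 46.1, 27.4, 46.9 and 55.2 CPM and IPO5 at 334, 230, 322 and 341 CPM did not pass. The median log2 ratio of the list was −0.38 at 10 min.

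Of the 6 other exportins, 1 was lower and 1 higher at 10 min, beside 6.85% and 7.70% of all genes tested. CSE1L, which returns alpha importins to the cytoplasm, gave 245, 114, 251 and 260 CPM, low at 10 min alone like KPNA2. XPO4 was higher on annotated transcripts (3.45, 28.1, 47.8 and 3.54 CPM), but its whole locus gave 73.7, 50.7, 61.7 and 85.1 CPM and passed at no time. XPO5, an exporter of microRNA precursors, gave 103, 67.7, 91.6 and 114 CPM and did not pass.

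Of 7 RAN cycle genes, 2 were lower and 1 higher at 10 min, beside 6.85% and 7.70% of all genes tested. RAN itself gave 298, 143, 208 and 232 CPM. RANGAP1, which makes RAN hydrolyse GTP, gave 452, 170, 515 and 429 CPM, and its whole locus, at 624, 343, 695 and 667 CPM, fell short of the rule. RCC1, which loads RAN with GTP, was higher at 10 and 360 min on annotated transcripts (23.9, 48.9, 16.4 and 88.5 CPM), and its locus could not be tied to it alone.

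Of 31 nucleoporin genes 0 were higher and 3 lower at 10 min, beside 7.70% and 6.85% of all genes tested. Their median log2 ratio was −0.52. NUP50, a pore protein that helps release cargo from alpha importins, gave 194, 79.4, 138 and 168 CPM, and NUP35 gave 21.4, 6.62, 14.1 and 19.9 CPM. NUP153 was lower at all 3 times on annotated transcripts (30.1, 7.97, 10.6 and 11.0 CPM), while its whole locus gave 127, 72.3, 125 and 143 CPM and passed at none. On whole loci 4 of 30 were lower at 10 min, beside 4.61% of all genes tested. They were NUP50 and NUP35 again, NDC1 at 100, 49.5, 95.7 and 112 CPM, and RAE1 at 39.7, 19.1, 29.6 and 38.5 CPM. AHCTF1, which seeds pore assembly on chromatin, was lower at 30 and 360 min on annotated transcripts (18.7, 23.7, 5.64 and 0.526 CPM), and it has no whole-locus value, as its locus could not be tied to it alone.

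Beside 6.85% of all genes tested, 2 of 9 mRNA export genes were lower at 10 min. They were ALYREF, which loads the export receptor onto mRNA, at 110, 39.8, 137 and 138 CPM, and NXF1, that receptor, at 58.8, 28.8, 42.2 and 50.3 CPM. GLE1 at 59.2, 39.7, 47.6 and 50.0 CPM did not pass. Of the listed genes with a whole-locus value, none other than KPNA6 passed on whole loci at 30 min, and none passed at 360 min. Over all genes tested 2.96% and 1.95% passed there. IPO4, AHCTF1 and RCC1, which passed at 30 or 360 min on annotated transcripts, have no whole-locus value and could not be judged. The median log2 ratios of the exportins, the RAN cycle genes and the mRNA export genes at 10 min were −0.26, −0.54 and −0.28, beside −0.04 over all genes.

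**Figure D5:**
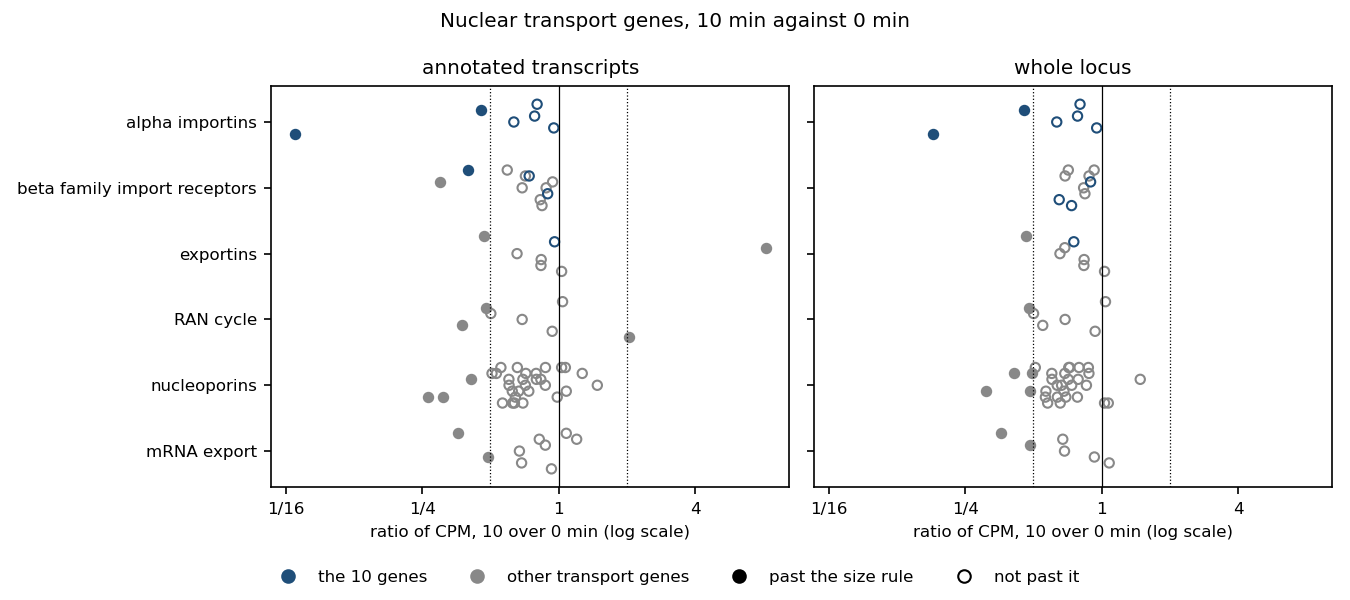
Ratio of CPM at 10 min over 0 min (log scale) for the genes of 6 nuclear transport lists, on annotated transcripts (left) and whole loci (right); dark points are the 10 genes, grey points the others, filled points are past the size rule and dotted lines mark 2-fold. Most points lie left of 1, KPNA6 lies furthest left in both panels, and XPO4 lies right of 2-fold on annotated transcripts only.

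The pattern most like that of KPNA6 was sought among 10457 genes with at least 10 CPM in 1 or more libraries, by Euclidean distance over the 3 log2 ratios of annotated sums, that is over 4 libraries. The nearest was EPS15 (distance 0.91), an endocytic adaptor, at 64.2, 6.64, 5.81 and 17.2 CPM. PIK3C2B followed (0.93), at 14.7, 0.612, 1.30 and 7.71 CPM, then TBX15 (1.19), RBM14-RBM4 (1.97) and NOLC1 (2.13). These distances have no interval, and PIK3C2B at 10 min was close to the floor of 0.216 CPM. The order of EPS15 and PIK3C2B is therefore not settled. The locus of RBM14-RBM4 could not be tied to it alone. On whole loci the other four were less like KPNA6: EPS15 gave 101, 118, 96.1 and 82.4 CPM, PIK3C2B 14.7, 23.4, 14.5 and 7.71, TBX15 60.7, 49.0, 60.9 and 60.2, and NOLC1 163, 116, 156 and 181. By whole locus, where KPNA6 was low at 10 min and returned, the nearest of 9574 genes were CD3EAP (distance 0.10), IL11 (0.41), ARMC6 (0.53), ZBTB38 (0.61) and LANCL2 (0.62). CD3EAP, a subunit of RNA polymerase I, gave 39.5, 6.66, 19.3 and 36.7 CPM, and IL11, a secreted cytokine, gave 136, 30.0, 78.4 and 137 CPM. Which genes resembled KPNA6 thus differed with the sum used.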

How the data were processed

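Poly(A)-selected RNA of AC16 cells was sequenced in 4 libraries, 1 each at 0, 10, 30 and 360 min. The submitters' processing notes name the GRCh38 assembly, HISAT2 and DESeq2 without versions. The sources used here do not give the counting tool, the annotation release or the use of strand. Estimated counts were deposited by the authors per locus and per transcript, as whole numbers, not scaled and not divided by length. The rows are 215876 annotated transcripts and 14473 transcript models made by an assembly across libraries. Annotated rows were matched by identifier to GENCODE 29 (197201 rows); unmatched rows held at most 0.104% of annotated counts in any library.

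Annotated rows were summed per gene and scaled to CPM (a total of 1000000 per library) by column totals, which ran from 55156612 to 56875881. A locus was tied to a gene where its 4 counts less its assembled models equalled that gene's summed transcripts, or where 1 gene held at least 95% of it. Per-length levels are counts divided by transcript length, scaled to TPM over annotated transcripts. Of 7122 low values (1 to 24) of single-transcript loci, 32.5% were multiples of 4, against 25% at even spacing. These values bear only weakly on the worth of a read pair. It was taken as 4 deposited counts, which widens the intervals, and undivided counts were an alternative. Each ratio has a 95% exact conditional binomial (Clopper-Pearson) interval on the count divided by 4. No molecular identifiers are recorded, and intervals and floors therefore cover only counting error. The size rule was 2-fold or more, a level of at least 5 CPM in either library of the pair, and 1 outside the interval. A count of 0 allows up to 3 read pairs (12 counts).

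With 1 library per time no test was run and no p-value was computed. The named genes are the 10 members, the genes of other nuclear transport lists past the size rule at any time, up to 3 per list with the largest absolute log2 ratio at 10 min and at least 5 CPM, and the 5 genes nearest to KPNA6 by Euclidean distance over its 3 log2 ratios. The members, lists and rules were chosen with earlier results of these data known. Alternatives were TMM (edgeR 4.0.16) and median-of-ratios (DESeq2 1.42.0) factors, whole loci, protein-coding transcripts only, length division, undivided counts, other minimum levels and 1.5-fold. Work was done in Python 3.11.15 with SciPy 1.17.1 and in R 4.3.3.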

Additional observations from a re-analysis of the deposited data

How the results depend on the processing

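Every comparison rests on 1 library per time, so neither culture, library nor harvest variation can be separated from time, and all ratios share the 0 min library. No paired analysis was possible because each time has a single library. Of 30 member ratios (10 genes at 3 times), none moved beyond its counting interval with TMM factors or with median-of-ratios factors. Undivided counts leave every one of these ratios as it is by construction and change only the interval, so they are no check on the ratios. With whole loci 8 moved, with protein-coding transcripts only 7, and with counts divided by length 16. With the 360 min library as baseline, chosen after the data were seen, 13 of 20 moved. The ratio at 10 min crossed 1 for XPO1 (1.26 with protein-coding transcripts only, 1.06 by length) and for KPNA1 (1.04 by length). Crossings at 30 min included KPNA1 (0.974, but 1.27 by length), KPNB1 (0.941, but 1.15 by length) and XPO1 (1.29, but 0.973 on whole loci). Those at 360 min included KPNB1 (0.642, but 1.03 on whole loci). The cause was not tested.

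The genes past the size rule at 10, 30 and 360 min (1729, 783 and 759) became 1129, 308 and 202 with whole loci, where fewer genes were tested. They became 3559, 1892 and 1704 with no minimum CPM, and 3984, 1835 and 1577 at 1.5-fold, both looser rules by construction. Of the 10 members at 360 min, 0 passed with whole loci and 2 at 1.5-fold, against 1. Members with another leading transcript numbered 4, 5 and 1 by counts per length, against 2, 2 and 0. The percent of KPNA6 in KPNA6-201 at 0, 10, 30 and 360 min became 98.0, 41.9, 32.0 and 97.6 by length. With assembled models in the total it became 96.6, 26.9, 7.89 and 40.9. KPNA5 had few counts and wide intervals, and those of its annotated ratios included 1 at all 3 times. Whether depth hid a difference was not tested.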
